A study of Arabidopsis thaliana with 8 samples.

Results

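The Arabidopsis array carried 481 probes for transcripts whose RefSeq accession begins with NR_, the prefix RefSeq gives to RNAs with no annotated protein, out of 43603 probes that were not controls. They were chosen by that prefix alone, without regard to their signal, and they read 433 accessions. Of these accessions 394 had 1 probe, 35 had 2, 3 had 3 and 1 had 8, and on each array the 481 probes filled 501 spots. RNA came from 12-day-old seedlings of 4 genotypes in the C24 background, with 2 arrays each. All 4 carried a T-DNA with the RD29A promoter driving luciferase and the 35S promoter driving NPTII. C24 was the wild type with this transgene, called C24-Luc in the series' design text. The single mutant ros1 carried ros1-1, and ros1hda6-9 and ros1hda6-10 added to it an allele of HDA6 found in a screen of T-DNA mutagenized ros1-1 plants. In hda6-9 a T-DNA sits just before the stop codon and changes the end of the protein. In hda6-10 a small deletion in exon 1 truncates it. Each allele was read in 1 line, which also carries ros1-1. The seedlings grew on full MS medium at 21 °C, with 3% sucrose in the medium and days of 16 h light and 8 h dark, and were kept at 4 °C for 1 day before harvest. The single mutant ros1 served as the reference, so the 2 comparisons of an allele with ros1 and that of C24 with ros1 share the same 2 ros1 arrays.

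ROS1 is a DNA glycosylase that removes methylated cytosine, and genes and transgenes it protects are silenced when it is lost. HDA6 is an RPD3-like histone deacetylase that keeps transposons, ribosomal RNA gene copies and some transgenes silent, partly together with the DNA methyltransferase MET1. Noncoding transcripts of plants include microRNA precursors, RNAs that give rise to small interfering RNAs, structural RNAs, and longer RNAs of mostly unknown role, and many arise near repeats that DNA methylation and histone deacetylation keep quiet. The labelling kit copies RNA from its poly(A) tail, so an RNA without such a tail is read poorly. The files pair these probes with accessions only, and none of the 433 accessions matched the gene table used here, which holds 5681 newer NR_ accessions. The probes are therefore named by accession and probe number, with no gene name, role or sequence.

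Across the series, the scanner's flag put 77.3% to 80.8% of an array's probes well above background, none of the non-control spots was saturated, and an array's 75th percentile ranged from 2004 to 3680 in signal. HDA6 itself, read by its brighter probe (A_84_P12211), gave -0.17 and -0.20 on the ros1 arrays, 0.90 and 0.84 in ros1hda6-9 and -1.76 and -1.78 in ros1hda6-10, on a log2 scale where 0 is the 75th percentile of the array. It was thus lower in ros1hda6-10 by 1.58 (limma, adjusted p = 0.00014) and higher in ros1hda6-9 by 1.05 (adjusted p = 0.00068), and where the probe lies relative to the mutations is not given in the sources used here. The 6 photosynthesis genes and the 3 root genes set as tissue markers were well above background in every genotype, as were the 5 cold-induced genes, while 3 to 4 of 5 seed storage genes were, with median levels between -6.22 and -4.22. The slides did not split evenly over the genotypes. Both C24 arrays were alone on slide 1, ros1 replicate 1 shared slide 2 with both ros1hda6-10 arrays, ros1 replicate 2 shared slide 3 with ros1hda6-9 replicate 1, and ros1hda6-9 replicate 2 was alone on slide 4, so that C24 and its slide cannot be told apart. The labels call the 2 arrays of a genotype biological replicates. An exact two-sided permutation test of 2 against 2 arrays cannot go below p = 0.33. Calls therefore rest on limma, which pools a probe's own spread within genotypes over all 8 arrays. It draws that spread toward the one of all probes, with 1.8 prior degrees of freedom.

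Most noncoding RNA probes gave a signal in these seedlings. Between 360 and 386 of the 481 were well above background on an array, or 74.8% to 80.2%. The lowest count came from ros1 replicate 1 and the highest from ros1hda6-10 replicate 1, and the 2 arrays of a genotype differed by 1 probe in C24, 19 in ros1, 14 in ros1hda6-9 and 16 in ros1hda6-10, so that the ranges of ros1, ros1hda6-9 and ros1hda6-10 overlapped. On 7 of the 8 arrays the share was below that of all probes. In all, 342 probes were well above background on every array and 59 on none. The 383 probes that reached this on both arrays of at least 1 genotype were tested, and the other 98 were not.

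**Figure D1:**
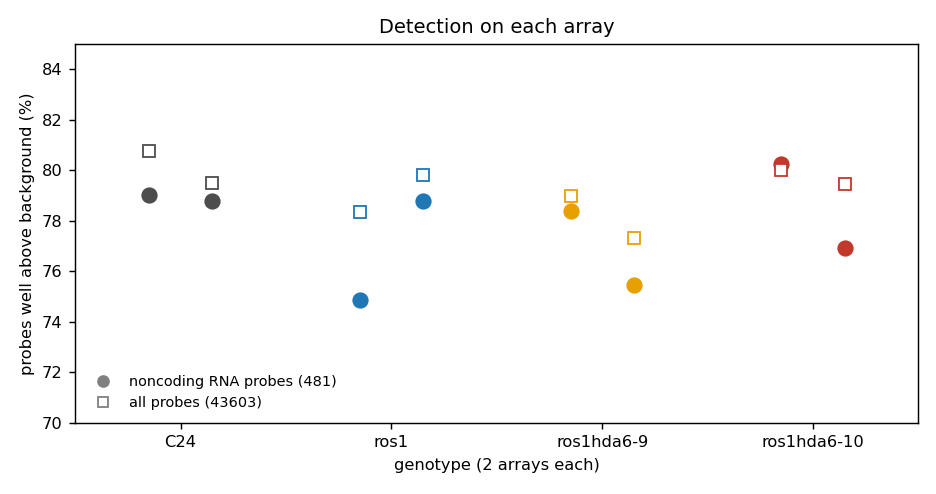
Share of probes well above background on each array (vertical axis, percent, starting at 70), for the 481 noncoding RNA probes (filled circles) and all 43603 probes (open squares), by genotype with 2 arrays each. The noncoding RNA probes lie between 74.8% and 80.2%, and the ranges of ros1, ros1hda6-9 and ros1hda6-10 overlap.

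The tested noncoding RNA probes were dim. Their median level over 8 arrays was -4.0 on the log2 scale, against -1.48 for all 35391 probes tested. The arrays of a genotype differed by a median of 0.16 to 0.20 per probe on this scale. A few were bright. The 5 brightest had mean levels between 7.17 and 7.75, and 4 of these read a single accession, NR_022452, with the top place taken by NR_022795 (A_84_P845679). That probe gave 7.57 and 7.70 in C24, 7.57 and 7.76 in ros1, 7.32 and 8.00 in ros1hda6-9 and 8.12 and 7.94 in ros1hda6-10. The ros1hda6-10 arrays lay above those of C24 and ros1 but overlapped those of ros1hda6-9, and no contrast called the probe. None of the 8 probes of NR_022452 was called either.

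In both alleles more noncoding RNA probes were above ros1 than below it. In ros1hda6-10, 43 of 383 probes (11.2%), from 38 accessions, were called higher at more than 2-fold and a limma adjusted p below 0.05, while 6 (1.57%) were called lower. Over all 35391 probes tested, 5.02% were higher and 1.35% lower. In ros1hda6-9, 40 probes (10.4%), from 35 accessions, were higher and 7 (1.83%) lower, against 4.3% and 1.37% of all probes. The median difference was 0.13 for the noncoding RNA probes in ros1hda6-10 and 0.10 in ros1hda6-9, against 0.02 for all probes in each. The share that fell was thus close to that of all probes, and the share that rose was above it. Of the called probes 87.8% were higher in ros1hda6-10 and 85.1% in ros1hda6-9. Under quantile normalization this was 74.4% in ros1hda6-10, and under normexp background correction all called probes were higher in both alleles. At looser rules the order was the same for the rises. At an unadjusted p below 0.05 with 2-fold, 49 (12.8%) were higher in ros1hda6-10 and 45 (11.7%) in ros1hda6-9, against 6.07% and 5.05% of all probes, and 10 (2.61%) and 8 (2.09%) were lower, against 2.25% and 2.88%. With 2-fold alone, 51 (13.3%) and 48 (12.5%) were higher, against 6.52% and 5.38%, and 11 (2.87%) and 12 (3.13%) were lower, against 3.02% and 3.95%. The counts of calls depended on the reference arrays, with fewer probes called higher in each allele without ros1 replicate 1. The share of all probes in that fit is not given here, so whether the excess over all probes changed is not known.

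The share of probes called varied with brightness, and the noncoding RNA probes are dimmer than the rest. Over all probes tested, those with a mean level below -6 were called higher in ros1hda6-10 in 15.9% of cases, and those above 0 in 0.829%. Weighted to the levels of the noncoding RNA probes, the share of all probes came to 7.59% in ros1hda6-10 and 6.62% in ros1hda6-9, which lies nearer to the 11.2% and 10.4% above. Below -6, the noncoding RNA probes were called less often than all probes, 10 of 89 (11.2%) in each allele, against 15.9% in ros1hda6-10 and 13.7% in ros1hda6-9. Between -2 and 0, 7 of 67 (10.4%) were called higher in each allele, against 1.88% and 1.35% of all probes. Some of these probes share an accession, such as those of NR_022493 below, so they are not separate transcripts. The mean level includes the allele arrays, so a large rise itself lifts a probe into a brighter band. No test was made of these differences between shares.

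**Figure D2:**
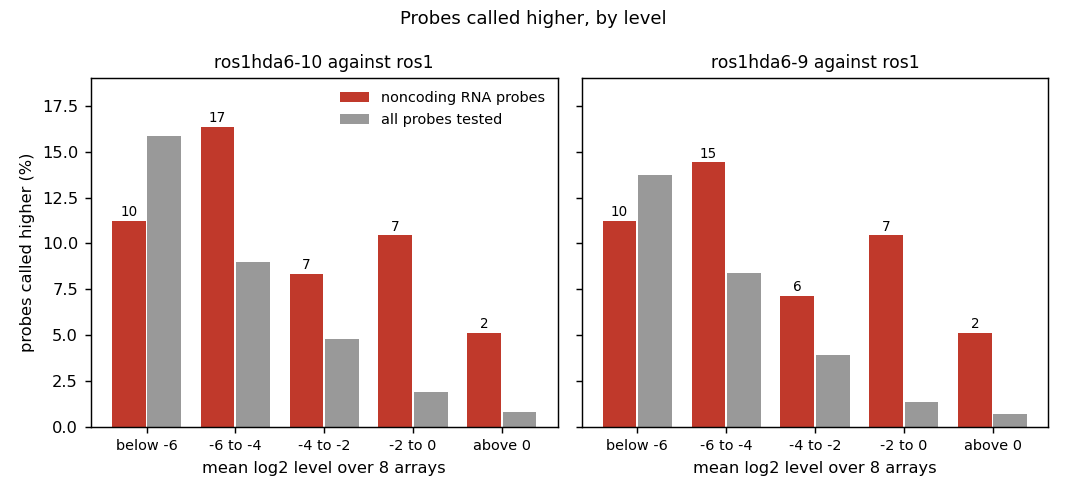
Percent of probes called higher than ros1 (vertical axis) by the mean log2 level of the probe over the 8 arrays (horizontal axis), for noncoding RNA probes (red) and all probes tested (grey), in ros1hda6-10 (left) and ros1hda6-9 (right). Numbers over the red bars count the noncoding RNA probes, and the red bars are below the grey only in the dimmest band.

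Of the called noncoding RNA probes, 29 (7.57% of those tested), from 25 accessions, were higher in both alleles, 14 (3.66%) in ros1hda6-10 only and 11 (2.87%) in ros1hda6-9 only. Over all probes tested, these shares were 3.36%, 1.66% and 0.941%. Both comparisons subtract the same ros1 arrays, so calls that fall together are given as counts only. Tested directly, 2 of these 14 and 1 of these 11 also differed between the alleles. The matching share over all probes was not taken, so no result about noncoding RNA probes is read from this. Another 4 probes (1.04%, against 0.469% of all) were lower in both, and none went opposite ways. Rises above 4 on this scale numbered 13 in ros1hda6-10, from 10 accessions, and 12 in ros1hda6-9, from 9 accessions. The share of all probes with rises of this size was not taken, so nothing is read from these counts. Where a slide held both genotypes, the values could be set side by side within it, as a description, since the same arrays took part in choosing the probes. On slide 2, 42 of the 43 probes called in ros1hda6-10 stood more than 1 above ros1 replicate 1, and on slide 3, 37 of 39 that could be measured in ros1hda6-9 stood more than 1 above ros1 replicate 2.

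**Figure D3:**
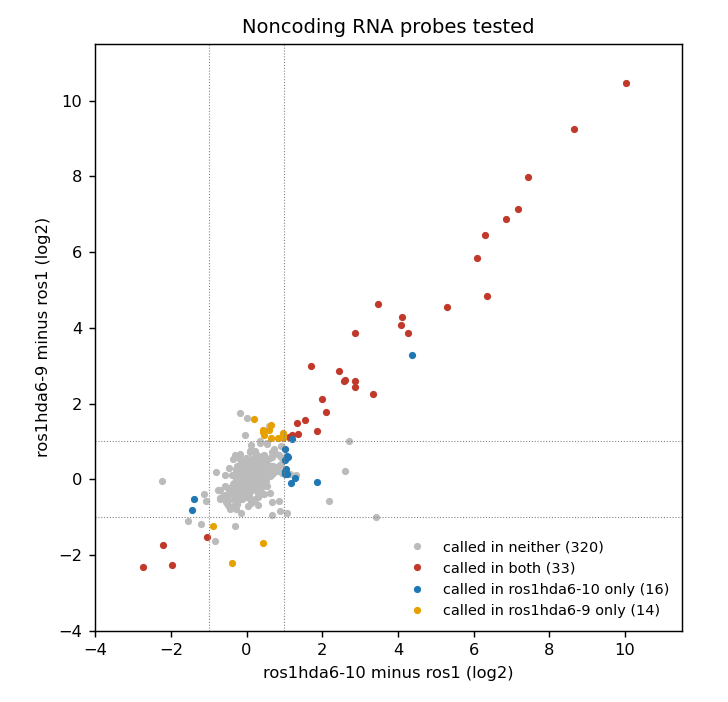
Difference from ros1 on the log2 scale in ros1hda6-10 (horizontal axis) and ros1hda6-9 (vertical axis) for each noncoding RNA probe tested in both, coloured by call. Dotted lines mark a 2-fold change. Since both axes subtract the same 2 ros1 arrays, the points are drawn toward the diagonal. The 33 probes called in both reach 10.03 in ros1hda6-10 and 10.46 in ros1hda6-9, at NR_022504.

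The 3 probes of NR_022504 gave the largest rises in both alleles. The brightest of them, A_84_P94029, read -6.94 and -7.65 on the ros1 arrays and -2.09 and -1.57 on those of C24. It read 3.08 and 3.24 in ros1hda6-9 and 2.80 and 2.66 in ros1hda6-10. The 4 genotypes did not overlap, with ros1 lowest, C24 in the middle and the alleles at the top. Relative to ros1 the rise was 10.03 ± 0.27 (SE) in ros1hda6-10, or 1045-fold, and 10.46 ± 0.27 in ros1hda6-9, or 1405-fold (limma, adjusted p = 2.5e-05 in each), and C24 stood 5.47 ± 0.27 higher than ros1 (adjusted p = 0.0029). The probe A_84_P792748 of this accession rose by 8.64 ± 0.17 and 9.24 ± 0.17, and A_84_P795925 by 7.44 ± 0.18 and 7.98 ± 0.18. In C24 they stood 4.21 and 3.13 above ros1. Thus the probes kept the same order of genotypes but differed by up to 2.59 in size, the widest gap among accessions with more than 1 tested probe. The alleles were not told apart by any of the 3, with differences of -0.43, -0.60 and -0.54 and adjusted p of 0.385, 0.115 and 0.141. The calls in both alleles held under every alternative tried, leaving out any array included. In C24 the call of A_84_P94029 was lost in the fit to C24 and ros1 alone (limma, adjusted p = 0.054). So was that of A_84_P795925 (0.070), while that of A_84_P792748 held.

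NR_022493 showed another pattern, low in ros1 alone. Its probe A_84_P757722 read -6.45 and -7.37 in ros1, whereas C24 gave 0.04 and 0.21, ros1hda6-9 gave 0.20 and 0.30, and ros1hda6-10 gave 0.27 and 0.28. The other 3 genotypes lay close together near 0, with C24 just below ros1hda6-10, and far above both ros1 arrays. Against ros1 the difference was 7.18 ± 0.28 in ros1hda6-10, 7.15 ± 0.28 in ros1hda6-9 and 7.03 ± 0.28 in C24 (limma, adjusted p = 8.5e-05, 9e-05 and 0.002). The probe A_84_P757727 gave 6.87, 6.89 and 7.19 in the same order, with C24, at 0.66 and 0.80, above both alleles, and the 3 calls of each probe held under every alternative. A transcript on the same model was NR_022374 (A_84_P724799). It read -5.70 and -5.98 in ros1, -0.68 and -0.94 in C24, -1.20 and -1.36 in ros1hda6-9 and 0.02 and -1.14 in ros1hda6-10. It was higher than in ros1 by 5.28 ± 0.37 in ros1hda6-10, 4.56 ± 0.37 in ros1hda6-9 and 5.03 ± 0.37 in C24. The call in C24 was lost without C24 replicate 1 (adjusted p = 0.066), without C24 replicate 2 (0.050) and without ros1 replicate 1 (0.066), and that in ros1hda6-9 with slide as a fixed term (0.066).

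By contrast, NR_022768 (A_84_P762449) was dim in both lines with an intact HDA6. C24 gave -8.72 and -8.70, not well above background, and ros1 gave -7.05 and -7.67, well above background on both arrays. In ros1hda6-9 it gave -0.71 and -1.09, and in ros1hda6-10 -1.04 and -1.10. The rise over ros1 was 6.29 ± 0.22 in ros1hda6-10 and 6.46 ± 0.22 in ros1hda6-9 (limma, adjusted p = 5.8e-05 and 6e-05), and both calls held under every alternative. C24 was at least 2.49-fold lower than ros1, counting C24 at the lowest signal well above background on its arrays, with an adjusted p of 0.098. Similar in size was NR_022468 (A_84_P758650), which lies outside the naming rule and was singled out after its values were seen. It read -8.72 and -8.06 in ros1, -6.90 and -6.66 in C24, -2.77 and -2.31 in ros1hda6-9 and -2.11 and -2.49 in ros1hda6-10, and rose by 6.09 ± 0.28 and 5.85 ± 0.28 in ros1hda6-10 and ros1hda6-9. Only 1 of the 2 ros1 arrays was well above background for it.

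NR_022697, read by 2 probes, was well above background on all arrays. A_84_P761674 gave -2.69 and -2.19 in ros1, -0.54 and -0.89 in C24, 1.38 and 1.46 in ros1hda6-9 and 1.87 and 1.78 in ros1hda6-10. None of the genotypes overlapped, and the rise over ros1 was 4.27 ± 0.19 in ros1hda6-10 and 3.86 ± 0.19 in ros1hda6-9 (limma, adjusted p = 0.00015 and 0.00022). A_84_P713950 rose by 2.87 ± 0.34 and 2.60 ± 0.34, with the C24 arrays at -0.20 and -0.44 against -3.11 and -2.03 in ros1. NR_022967 (A_84_P765529) read -8.33 and -7.41 in ros1, -5.92 and -6.54 in C24, -3.55 and -3.58 in ros1hda6-9 and -3.51 and -4.03 in ros1hda6-10. Its rise came to 4.10 ± 0.37 in ros1hda6-10 and 4.30 ± 0.37 in ros1hda6-9, and its alleles overlapped far above the other arrays. The call in ros1hda6-9 was lost with slide as a fixed term (limma, adjusted p = 0.0503). That in ros1hda6-10 was not followed under the alternatives.

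**Figure D4:**
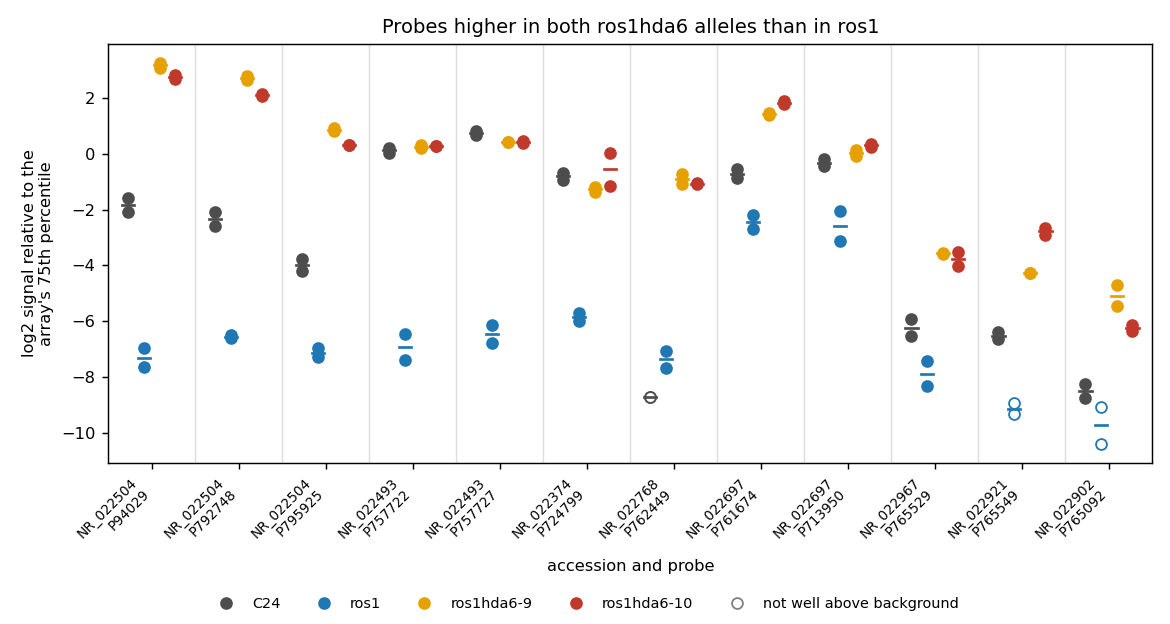
Log2 signal relative to the 75th percentile of the array (vertical axis) on each of the 8 arrays for 12 probes called higher in both alleles than in ros1 (horizontal axis, by accession and probe). Points are arrays, short lines the mean of a genotype, and open points arrays on which the probe was not well above background. For NR_022493 and NR_022374 only ros1 is low, for NR_022504 C24 lies between ros1 and the alleles, and for NR_022768 C24 is lowest.

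Some transcripts were seen in the alleles but not in ros1. In each allele 8 probes were well above background on its 2 arrays and on no ros1 array, and 6 of these were called in each. The 8 were 2.09% of the noncoding RNA probes tested, against 1.70% of all probes tested in ros1hda6-10 and 1.35% in ros1hda6-9, and the 6 were 1.57%, against 1.41% and 1.19%, so these shares were near the background. For NR_022921 (A_84_P765549) ros1 gave -9.33 and -8.91, not well above background, and C24 gave -6.40 and -6.62. Its signal was -4.26 and -4.27 in ros1hda6-9 and -2.64 and -2.91 in ros1hda6-10. Counting ros1 at the lowest signal well above background on each of its arrays, or at its own where that is higher, ros1hda6-10 was at least 61.2-fold higher and ros1hda6-9 at least 21.8-fold higher (limma, adjusted p = 2.5e-05 and 6.2e-05). In C24 it was at least 4.61-fold higher (adjusted p = 0.0062), a call lost under normexp (log2 difference 0.26, adjusted p = 0.82) and in the fit to C24 and ros1 alone (adjusted p = 0.079). NR_022902 (A_84_P765092) was at least 5.55-fold higher in ros1hda6-10 and at least 12.4-fold higher in ros1hda6-9, and its C24 arrays, at -8.74 and -8.23, lay just above the ros1 arrays at -10.38 and -9.07. NR_022766 (A_84_P762852) was at least 4.12-fold and 4.24-fold higher in ros1hda6-10 and ros1hda6-9. All of these calls against ros1 in the alleles held without each array in turn, but under normexp those of NR_022766 were lost, with log2 differences of 0.92 (adjusted p = 0.052) and 0.45 (adjusted p = 0.29).

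Closer to background the bounds were small. NR_022193 (A_84_P754363) was the single probe well above background on all 4 allele arrays and on no ros1 or C24 array, and it was at least 2.49-fold higher in ros1hda6-10 and at least 2.73-fold higher in ros1hda6-9. Its call in ros1hda6-10 was lost without ros1 replicate 1 or 2 or ros1hda6-10 replicate 1 (adjusted p up to 0.073), and that in ros1hda6-9 without ros1 replicate 1 or 2 (up to 0.065). Both were also lost under normexp (log2 differences of 0.71 and 0.11), with the combined matrix and with slide as a fixed term. NR_022466 (A_84_P758623) was at least 8.03-fold higher in ros1hda6-10 (adjusted p = 0.040) but spread widely, with ros1 at -10.78 and -9.40, and in ros1hda6-9 the bound was 3.74-fold with an adjusted p of 0.082. Its call was lost when any array other than those of C24 was left out, with an adjusted p up to 0.175 without ros1 replicate 1. For NR_022126 (A_84_P754628) and NR_022813 (A_84_P762430), ros1hda6-9 was at least 3.42-fold and at least 1.85-fold higher. Both calls were lost under normexp (log2 differences of 0.38 and 0.07), with the combined matrix (adjusted p = 0.16 and 0.21) and with slide as a fixed term (adjusted p = 0.14 and 0.16). In ros1hda6-10 the former was well above background on 1 array only and the latter on neither, so although both were called there, NR_022813 gets no fold. Likewise NR_022109 (A_84_P717232) was called higher in both alleles and in C24, but its ros1 mean rests on 1 array at -10.94 that was not well above background, the other spot being an outlier left out of the fit, and neither C24 nor ros1hda6-10 was well above background on any array.

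The C24 arrays took different places among the 29 probes that rose in both alleles. In 20 of them C24 and ros1 were well above background on both arrays, and in 13 of these 20 C24 lay between ros1 and the alleles with no overlap. In 5 it was above ros1 and reached or passed the alleles, and in 2 it overlapped ros1. The 5 were both probes of NR_022493 and 1 each of NR_022374, NR_022249 and NR_023056, of which the last 2 lie outside the naming rule. For the other 9, C24 or ros1 was too dim on at least 1 array for a place to be given. All 29 were picked as higher than ros1, so low ros1 arrays favour a place of C24 above ros1. The share of each place among all probes higher in both alleles was not taken, so nothing is read from these counts. Many rises were small: 21 of 43 rises in ros1hda6-10 and 18 of 40 in ros1hda6-9 were below 2 on the log2 scale, with the smallest at 1.00 and 1.09.

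Few noncoding RNA probes fell. NR_027741 (A_84_P797216) read -3.04 and -4.05 in ros1, -3.94 and -4.13 in C24, -5.16 and -5.41 in ros1hda6-9 and -5.88 and -5.61 in ros1hda6-10. It fell by 2.20 in ros1hda6-10 and by 1.74 in ros1hda6-9 (SE 0.33, limma, adjusted p = 0.012 and 0.026), and both alleles lay below both C24 and ros1. NR_022368 (A_84_P754300) read -4.94 and -5.55 in ros1, -5.80 and -6.40 in C24, -7.78 and -7.21 in ros1hda6-9 and -7.19 and -7.26 in ros1hda6-10, a fall by 1.98 in ros1hda6-10 and by 2.25 in ros1hda6-9 (SE 0.31). NR_022842 (A_84_P724260) fell by 1.03 and by 1.51. In ros1hda6-10 this turned to 0.15 higher under normexp, not called, and the call was also lost with slide, replicate or crossed replicate blocks and with no filter (adjusted p from 0.057 to 0.14). NR_023050 (A_84_P765109) was well above background on both ros1 arrays, at -7.79 and -7.54, and on no allele array, at least 1.61-fold lower in ros1hda6-10 and at least 1.55-fold lower in ros1hda6-9. It was the single probe of that kind, and under normexp its difference in ros1hda6-10 turned to 0.33, not called. These 4 were the probes called lower in both alleles.

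Other falls were called in 1 allele. In ros1hda6-10, NR_022798 (A_84_P761782) fell by 1.44 and NR_022067 (A_84_P704033) by 1.39. In ros1hda6-9, NR_022986 (A_84_P765136) fell by 1.24, while NR_022722 (A_84_P712812) and NR_022198 (A_84_P754241), not well above background there, were at least 2.58-fold and at least 1.60-fold lower than ros1. Under normexp no noncoding RNA probe was called lower in either allele, and the falls rested on few arrays. In ros1hda6-10, the call of NR_022067 alone held without each array, and those of the other 5 were lost without ros1hda6-10 replicate 1 (for NR_027741, adjusted p = 0.070, the one array that ends its call), and 2 probes in all were called lower without it. In ros1hda6-9, 1 probe was called lower without ros1hda6-9 replicate 1 and 3 without ros1hda6-9 replicate 2, and the call of NR_022722 was lost without any of the 8 arrays.

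C24 was compared with ros1 to describe what differed between the wild type and the ros1 mutant. The C24 arrays were alone on their slide, so an effect of ROS1 loss cannot be told apart from one of the slide. In this contrast 11 of 383 noncoding RNA probes (2.87%), from 8 accessions, were higher in C24, against 0.342% of all probes tested, and 0.476% when weighted to the levels of the noncoding RNA probes. None was lower, against 0.0932% of all probes, though 3 (0.783%) were lower by more than 2-fold at an unadjusted p below 0.05, against 0.737% of all probes. At that rule 25 (6.53%) were higher, against 1.74%. With 2-fold alone 27 (7.05%) were higher and 4 (1.04%) lower, against 2.46% and 1.4%. Without C24 replicate 1 or ros1 replicate 1 the count higher was 6, and without C24 replicate 2 it was 7. Of the 11, 9 from 6 accessions were also called higher in both alleles: the 3 probes of NR_022504, both of NR_022493, and 1 each of NR_022374, NR_022921, NR_022697 and NR_022109, described above. Since the comparisons share the ros1 arrays, this overlap is given as a count only. The call of NR_022697 (A_84_P761674), 1.72 higher in C24 at an adjusted p of 0.035, was lost without any single array other than ros1 replicate 2, with an adjusted p up to 0.150 without C24 replicate 1.

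A single transcript was called higher in C24 and in neither allele. NR_022465 (A_84_P758054) read -2.08 and -1.82 in C24 and -8.57 and -8.73 in ros1, not well above background. In ros1hda6-9 it read -7.60 and -7.65, and in ros1hda6-10 -4.75 and -7.12. C24 stood far above every other array, at least 104-fold above ros1 (limma, adjusted p = 0.029). The ros1hda6-10 arrays differed from each other by more than 2, and their difference from ros1 was not called (at least 6.58-fold, adjusted p = 0.064). The call in C24 was lost without either C24 array, either ros1 array or either ros1hda6-9 array, with an adjusted p up to 0.155 without ros1 replicate 1. The remaining probe of the 11, NR_023169 (A_84_P768909), was higher in C24 by 2.12 ± 0.24 and in ros1hda6-9 by 1.59 ± 0.24, but not in ros1hda6-10, where the difference was 0.20. Its call in C24 was lost without either array of C24, ros1 or ros1hda6-9, with an adjusted p up to 0.146 without C24 replicate 2.

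The alleles differed from each other in 7 noncoding RNA probes. ros1hda6-10 was higher in 5 (1.31%) and lower in 2 (0.522%), against 1.44% and 0.54% of all probes tested, so these shares were near the background. Of the 7, 71.4% were higher in ros1hda6-10, against 60% of those called under quantile normalization and all of those called under normexp. At an unadjusted p with 2-fold 13 (3.39%) were higher and 5 (1.31%) lower, against 3.18% and 1.04%, and with 2-fold alone 19 (4.96%) and 8 (2.09%), against 4.2% and 1.5%. Of those well above background on all 4 allele arrays, NR_022921 was higher in ros1hda6-10 by 1.49 ± 0.17 (limma, adjusted p = 0.024). NR_023003 (A_84_P765062) read -6.41 and -6.02 in ros1hda6-9 and -4.85 and -5.05 in ros1hda6-10, a difference of 1.27 ± 0.20 (adjusted p = 0.035). NR_022976 (A_84_P784525) read -2.62 and -2.50 against -1.29 and -1.30, also 1.27 higher in ros1hda6-10, although neither allele was called against ros1, at -2.26 and -1.67. NR_023169 read -3.73 and -3.48 in ros1hda6-9 and -4.71 and -5.29 in ros1hda6-10, which was lower by 1.39 on the log2 scale.

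The other 3 were dim in one of the alleles. NR_022198 was well above background throughout C24, ros1 and ros1hda6-10 but on neither array of ros1hda6-9, and it was at least 2.16-fold higher in ros1hda6-10. NR_022571 (A_84_P758444) was well above background in C24, at -7.77 and -7.49, and in ros1hda6-10, at -7.34 and -7.41, but not in ros1 or ros1hda6-9, and was at least 1.90-fold higher in ros1hda6-10 than in ros1hda6-9 and at least 2.53-fold higher than in ros1, a call that was lost without either array of ros1 or ros1hda6-10 (adjusted p up to 0.103). NR_022109 was at least 1.32-fold higher in ros1hda6-9. None of the 7 calls held throughout. Calls were lost with either ros1hda6-9 replicate 2 or ros1hda6-10 replicate 1 left out, and no probe was called in either direction with slide as a fixed term. In that fit 27 noncoding RNA probes were higher and 6 lower in ros1hda6-10 by 2-fold at an unadjusted p under 0.05. The share of all probes at this rule was not taken there, so nothing is read from these counts.

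**Figure D5:**
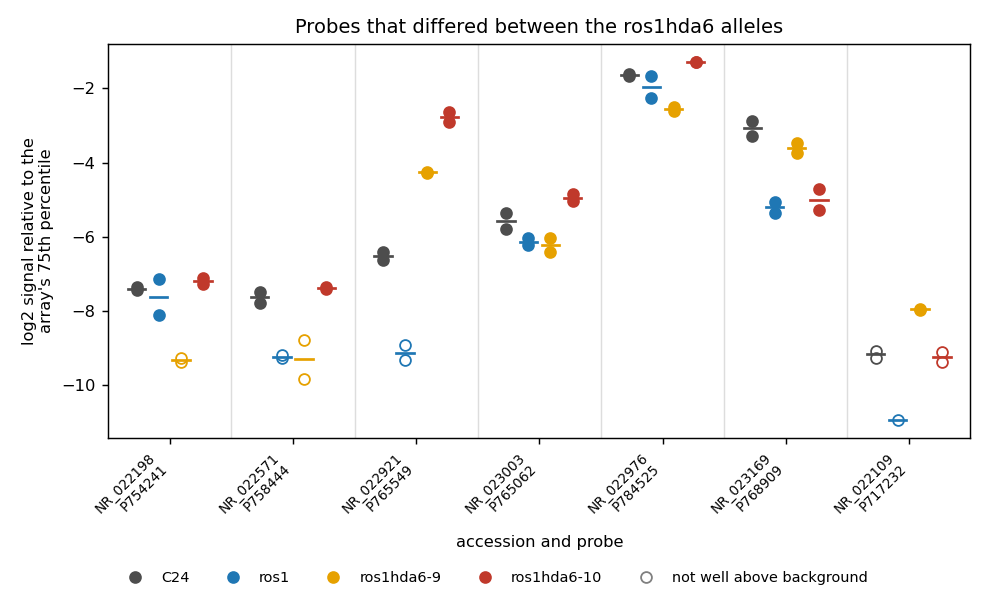
Log2 signal relative to the 75th percentile of the array (vertical axis) on each array for the 7 probes that differed between the alleles (horizontal axis). Points are arrays, short lines the mean of a genotype, and open points arrays on which the probe was not well above background. The gap between the alleles ranges from 1.27 to 2.13, and NR_022109 has 1 measured ros1 array.

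Probes of one accession mostly had close values. Of 30 accessions with more than 1 tested probe (69 probes), the median gap between the highest and lowest difference from ros1 was 0.23 in ros1hda6-10 and 0.22 in ros1hda6-9, and 3 accessions had a gap above 1 in each. In each allele 25 of the 30 had no called probe, so most of these gaps lie between probes that were not called. All tested probes were called in 4 accessions in each allele, NR_022504, NR_022493 and NR_022697 in both, NR_022767 in ros1hda6-10 and NR_022989 in ros1hda6-9. In 1 accession, NR_022930, 1 of its 2 probes was called, a different one in each allele, although the 4 differences lay between 0.97 and 1.21. The names of NR_022767, NR_022989 and NR_022930 were taken after their values were seen.

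Lists of protein-coding genes that make, cut or are targeted by small noncoding RNAs were set beside the noncoding RNA probes. None of 14 genes of microRNA biogenesis (the machinery that cuts microRNAs from their precursors), 5 of trans-acting siRNA production and 12 of the RNA exosome and exonucleases, which degrade RNA, was called in any of the 4 contrasts, and median differences were between -0.06 and 0.24. The same held for 8 phosphate starvation genes, whose medians lay between -0.61 and 0.46. Of 31 microRNA and trans-acting siRNA targets tested, 1 was called, SMZ, a repressor of flowering, higher in ros1hda6-10 by 1.00 ± 0.13. CUC1, a transcription factor of organ boundaries, was 0.85 higher in each allele (adjusted p = 0.0056 and 0.0058), below the 2-fold limit. With 5.02% of all probes called higher and 1.35% lower in ros1hda6-10, lists of this size would hold few calls at the background share, so nothing is read from these counts. The phosphate-starvation RNAs IPS1 and AT4, which carry mRNA accessions on this array, were not called in any contrast. The 8 genes for trans-acting siRNA precursors on the list were not matched to a probe. Among the cold-induced markers, COR78 (RD29A, the gene whose promoter drives the luciferase of these lines) was higher in ros1hda6-10 by 5.74 ± 0.81 and COR15A by 1.44.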

How the data were processed

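RNA from 8 seedling samples (150 ng each) was labelled with Cy3 and hybridised to 1-colour Agilent arrays, 1 sample per array. The authors deposited the scanner output of Feature Extraction 10.7.1.1, whose processed signal, an intensity with the background subtracted, was used for every value. A combined matrix of background-subtracted intensity, also deposited by the authors, served as an alternative. Control spots and outlier spots were left out, log2 of the processed signal was taken, the 75th percentile of the array was subtracted, and spots of 1 probe were averaged. A probe was tested where the scanner's flag put it well above background on the 2 arrays of any genotype. The 35391 probes tested were fitted together over all 8 arrays with limma 3.58.1 in R 4.3.3 (lmFit and eBayes, 1.8 prior degrees of freedom), with 1 mean per genotype and no block, and p-values were adjusted by the Benjamini-Hochberg method over all of them within each of 4 contrasts. Calls have an adjusted p below 0.05 and differ by more than 2-fold. The study's methods give a percentile shift to 75, P under 0.05 and 2-fold but name no test, and they speak of more replicates than the 2 arrays per genotype analysed here. The script was tested on simulated data with known fold changes.

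For a probe not well above background on either array of a genotype, the bound counts it, on each array, at the lowest level among probes well above background or at its own level where that is higher. Weighted shares take the share of all probes called within each of 5 level bands and weight the bands by the noncoding RNA probes in them.

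Named probes are, in each contrast, the 8 largest rises and the 8 largest falls among called probes that both genotypes showed well above background on every array, up to 8 called probes seen in 1 genotype only, all probes of their accessions and the 5 brightest. A probe is a member by its NR_ prefix alone, but this set, the lists and the rules were chosen with earlier results of these data known. Alternatives were normexp (offset 50), the median shift, quantile normalization, the combined matrix, other filters and thresholds, outlier spots kept, accessions in place of probes, fits to 2 genotypes, slide as a fixed or random term, the replicate number as a fixed term, and each array left out. Precision is limited by there being 2 arrays per genotype.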

Additional observations from a re-analysis of the deposited data

Results flagged for a closer look

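Results were set apart here where the effects of the 2 alleles, each relative to ros1, differed from each other by the direct test between them. This held for 7 noncoding RNA probes. On the log2 scale, ros1hda6-10 minus ros1hda6-9 was 2.13 for NR_022198 (A_84_P754241), 1.92 for NR_022571 (A_84_P758444), 1.49 for NR_022921 (A_84_P765549), 1.27 for NR_023003 (A_84_P765062), 1.27 for NR_022976 (A_84_P784525), -1.28 for NR_022109 (A_84_P717232) and -1.39 for NR_023169 (A_84_P768909). In all 7 both arrays of one allele lay above both of the other. For NR_022198, NR_022571 and NR_022109 the dimmer allele was not well above background, so that the bounds given above apply. Among the fits with 1 array left out, NR_022571 had its highest adjusted p, 0.129, without ros1hda6-10 replicate 1, and the other 6 had theirs, between 0.126 and 0.155, without ros1hda6-9 replicate 1. Other settings went higher, to 0.375 for NR_023169 with slide as a fixed term and 0.729 for NR_022109 with outlier spots kept. The ros1hda6-9 arrays lay on different slides and those of ros1hda6-10 on the same slide, and the part of the slide in these differences was not tested beyond the fit with slide as a fixed term, in which none of the 7 was called.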

How the results depend on the processing

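With 2 arrays per genotype and dim probes, the counts moved with many choices, and causes were not tested. The share of all probes called is not given beside these counts. They therefore show how the calls moved and not whether the excess over all probes did. Each array left out in turn gave 22 to 40 higher and 2 to 7 lower in ros1hda6-10 against ros1, 26 to 42 and 1 to 6 in ros1hda6-9 against ros1, 0 to 3 and 0 to 1 in ros1hda6-10 against ros1hda6-9, and 6 to 11 and 0 to 1 in C24 against ros1. Below, counts are given in this order of contrasts where they moved by over 1.5 times. Normexp gave 25 higher and 0 lower, 20 higher and 0 lower, and 0 lower between alleles. It also turned the sign for A_84_P724260 (0.15) and A_84_P765109 (0.33) in ros1hda6-10 against ros1 and A_84_P717232 between alleles (0.47), none of them called. Quantile normalization gave 10 lower in ros1hda6-10 and 4 lower between alleles. With no filter the alleles differed in 3 higher and 1 lower. With probes seen on all 8 arrays only, 4 were lower in ros1hda6-9 and 1 between alleles, and with outlier spots kept 1 was lower between alleles. Accessions in place of probes gave 7 accessions higher in C24, where the main fit called 11 probes from 8 accessions, so the unit differs. Fits to 2 genotypes gave 3 lower in ros1hda6-9, 2 higher and 0 lower between alleles and 6 higher in C24.

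With slide as a fixed block, 28 were higher in ros1hda6-10, 17 higher and 4 lower in ros1hda6-9, and 0 either way between alleles; C24 could not be fitted, and a random slide block changed no named call. Same-numbered arrays did not deviate together (r of replicate differences from -0.37 to 0.06, over probes). The replicate block gave 0 and 0 between alleles and 7 higher in C24, and otherwise 38 higher and 5 lower in ros1hda6-10 and 35 and 5 in ros1hda6-9. A crossed pairing, chosen after seeing the data, gave 40 and 6 and 37 and 6. With no minimum fold change, 66 were higher and 12 lower in ros1hda6-10, 21 lower in ros1hda6-9, and 11 and 7 between alleles. At an unadjusted p with 2-fold there were 10 lower in ros1hda6-10, 13 and 5 between alleles, and 25 and 3 in C24. With 2-fold alone there were 11 lower in ros1hda6-10, 12 lower in ros1hda6-9, 19 and 8 between alleles, and 27 and 4 in C24. Of 58 named calls, 22 held under every alternative that could test them, and 26 were lost without at least 1 array. By the flag for a signal that is positive and significant, 412 to 437 noncoding RNA probes were seen per array.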
